A study of Homo sapiens with 4 samples.

Results

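Wide accessible domains were defined by the length of the peak that called them. The broad ATAC-seq peak lists of 4 libraries were merged on chromosomes 1 to 22 wherever peaks shared 1 bp or more, and a merged region was kept where at least 1 library had a single peak of 1000 bp or more. This left 1188 wide domains of 36146 merged broad regions (3.29%, 95% exact interval 3.11 to 3.48). Because peak length chose them, lengths and anything that moves with length are given here as descriptions.

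ATAC-seq marks DNA that the Tn5 transposase can reach, and a broad peak is a stretch over which the fragment coverage stays above the local background. Long accessible stretches are known from clustered enhancers and from promoters of highly expressed genes. They are also known from satellite and duplicated sequence, where reads of many copies gather on the few copies that a genome assembly holds. A SWI/SNF complex moves and evicts nucleosomes, which changes how accessible DNA is, and carries either SMARCA2 or SMARCA4 as its ATPase.

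The cells were OVSAHO, an established ovarian cancer cell line. The test group (libraries test 1 and test 2) carried the genotype label "SMARCA2 stable, SMARCA4 knockdown", and the design text names these cells OVSAHO-A2-siA4, with raised SMARCA2 and lowered SMARCA4 expression. The control group (libraries control 1 and control 2) was labelled WT and is named OVSAHO-Ctrl-siNC in the design text. Both groups were grown with 25 uM carboplatin, a DNA-crosslinking platinum drug, for 2 days, so no library shows untreated cells. Nothing states that replicates came from separate cultures, so the spread between them may be technical. The levels of SMARCA2 and SMARCA4 are not among these data.

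Broad peaks were called on 22432549 fragments in test 1 and 23596152 in test 2, against 31515662 in control 1 and 25452784 in control 2. Control 1 stood apart. Its fragments had a size of 131 bp, against 178 bp in test 1, 179 bp in test 2 and 182 bp in control 2. It also had 10217 narrow peaks, which are called on nucleosome-free fragments alone, while test 1 had 3311, test 2 had 4075 and control 2 had 5315. Those narrow lists were not called at equal depth. They used 6146272 nucleosome-free fragments in test 1 and 6885374 in test 2, against 15828837 in control 1 and 7531794 in control 2.

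Test and control libraries did not differ in the number of wide peaks beyond the spread between replicates. Single peaks of 1000 bp or more numbered 342 in test 1 and 584 in test 2, against 503 in control 1 and 523 in control 2. The test libraries lay on both sides of the control libraries, so the groups overlapped. The mean was 463 ± 171 wide peaks in test libraries and 513 ± 14.1 in control libraries (SD, n = 2 each), a difference of -50 (exact two-sided permutation test, p = 1, where 2 against 2 libraries cannot go below 0.333). Without test 1 the difference had the other sign, at 71 wide peaks, and the number scaled to 1000000 fragments was 19.998 ± 6.72 in test libraries and 18.3 ± 3.24 in control libraries (SD, n = 2 each; exact permutation p = 1). These peaks covered 502046 bp in test 1 and 818997 bp in test 2, against 713229 bp in control 1 and 740651 bp in control 2. The covered length was also not separated by group (difference -66418.5 bp, exact two-sided permutation test, p = 1, n = 2 each). Wide peaks made up 3.95% of the broad list of test 1 and 4.26% of test 2, against 2.75% of control 1 and 4.01% of control 2. They held 13.4% of the called bases in test 1 and 14.0% in test 2, against 11.2% in control 1 and 12.8% in control 2.

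**Figure D1:**
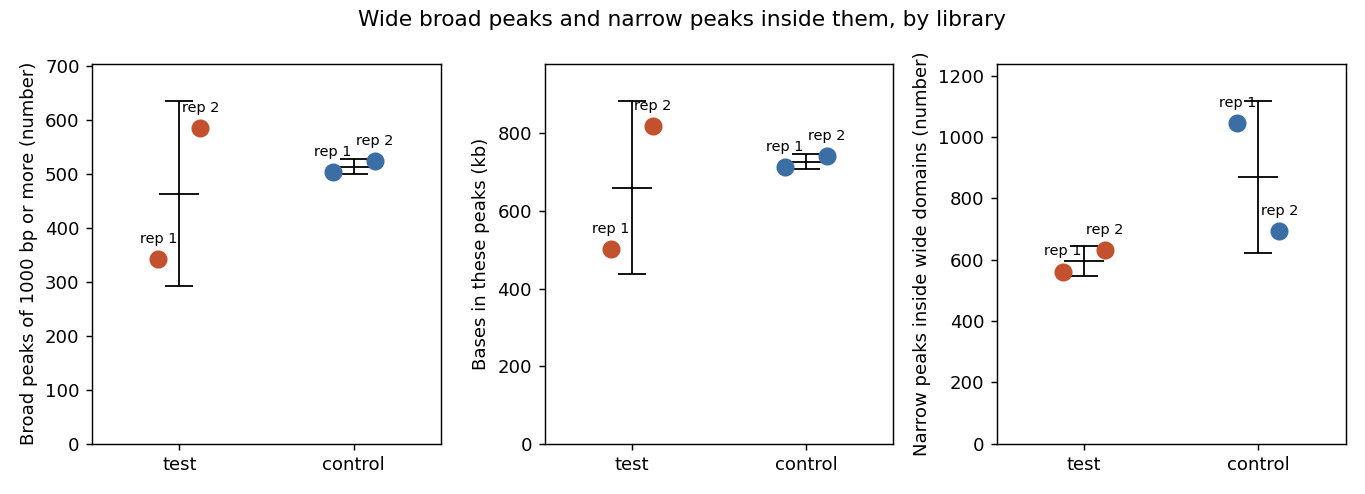
Broad peaks of 1000 bp or more (left, number), the bases they cover (middle, kb) and narrow peaks inside wide domains (right, number) in each library, with points for replicates, horizontal bars for group means and error bars for the SD (n = 2). The 342 wide peaks of test 1 and 584 of test 2 lie on both sides of the 503 of control 1 and 523 of control 2, while the 561 and 631 narrow peaks of the test libraries lie below the 1045 and 693 of the control libraries.

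Most wide domains were only a little longer than the limit. The longest single-library call of a domain had a median of 1186 bp (25th percentile 1074 bp, 75th percentile 1415 bp) and reached 6937 bp, against a median of 300 bp in the 34958 other merged regions. Of the 1188 domains, 238 had a call of 1500 bp or more, 92 of 2000 bp or more, 25 of 3000 bp or more and 7 of 4000 bp or more. The limit fell within a continuous distribution. The 3 peaks just under it were 997, 999 and 999 bp long in test 1 and 998, 999 and 999 bp in test 2, against 999 bp each in control 1 and 998, 999 and 999 bp in control 2. The 3 just over it were 1002, 1003 and 1004 bp long in test 1 and 1001, 1001 and 1002 bp in test 2, against 1000 bp each in control 1 and 1000, 1001 and 1001 bp in control 2.

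Wide peaks had a median fold enrichment close to that of shorter peaks. With no input library, the local background comes from the same library's coverage, so this ratio does not measure the height of coverage. The deposited fold enrichment, which sets the coverage of a peak against the local background of its own library, had a median over wide peaks of 3.87 in test 1 and 3.52 in test 2, against 3.48 in control 1 and 3.71 in control 2. Over the shorter peaks of the same lists it was 4.05 in test 1 and 3.62 in test 2, against 3.55 in control 1 and 3.70 in control 2. The highest fold enrichment of a wide peak was 8.84 in test 1 and 8.50 in test 2, against 8.94 in control 1 and 8.12 in control 2. Shorter peaks reached 23.9 in test 1 and 23.7 in test 2, against 31.4 in control 1 and 23.01 in control 2. The deposited −log10 q was higher for wide peaks, with medians of 6.45, 3.66, 3.03 and 4.89 in test 1, test 2, control 1 and control 2, against 3.35, 2.16, 1.84 and 2.81 for shorter peaks of the same libraries. These are the authors' values and are not normalized between libraries.

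Wide domains were called in more libraries than other regions were. All 4 libraries called 358 of the 1188 domains (30.1%, 95% exact interval 27.5 to 32.8), against 734 of the 34958 other regions (2.10%, 1.95 to 2.26). Just 1 library called 186 domains (15.7%), against 72.4% of the other regions. A region merged over more libraries also has more chances of holding a long peak, so this difference is partly built into the rule and was not tested. The most frequent pattern short of all 4 was a call in test 1, test 2 and control 2 but not in control 1, with 269 domains (22.6%) against 9.96% of the other regions. A call in test 2 and control 1 alone came next, with 138 domains (11.6%) against 4.93%, and 112 domains (9.43%) were called in control 1 alone, against 39.2%. The patterns with all libraries but control 1 and with control 1 alone set that library apart, while the remaining one joined it with test 2. None of these patterns followed the groups.

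**Figure D2:**
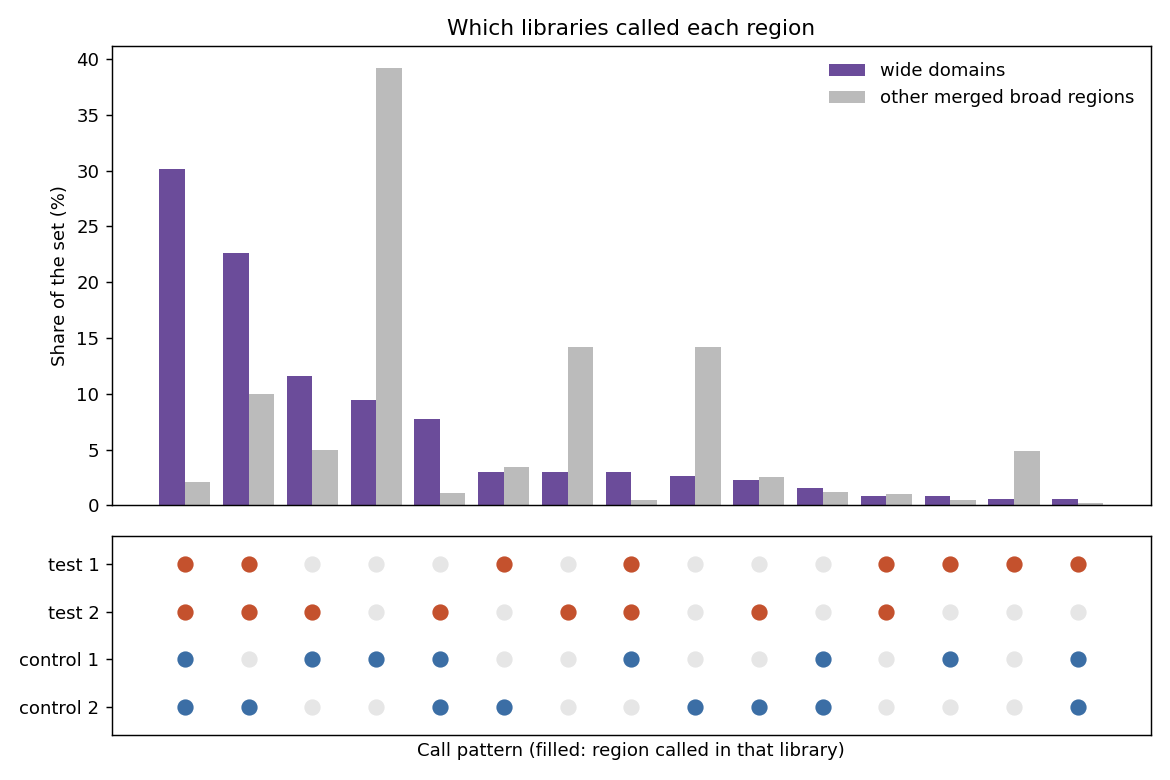
Share (%) of the 1188 wide domains and of the 34958 other merged broad regions with each pattern of calls over the 4 libraries, with filled dots below each pair of bars for the libraries that called the region. Calls in all 4 libraries made up 30.1% of wide domains and 2.10% of other regions, and calls in control 1 alone made up 9.43% and 39.2%.

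Being called was more common than being called wide. Test 1 called 733 domains (61.7%) and test 2 called 966 (81.3%), against 772 (65.0%) in control 1 and 839 (70.6%) in control 2. The call was 1000 bp or more for 339 domains in test 1 and 581 in test 2, against 500 in control 1 and 523 in control 2. As many as 779 domains (65.6%) were wide in 1 library alone, 182 in 2, 108 in 3 and 119 (10.02%) in all 4. Of the 779, the other libraries had no call at 186, a shorter call in 1 library at 214, in 2 libraries at 272 and in 3 at 107. Control 1 more often had the domain in pieces, with more than 1 peak inside 80 domains, while this held for 27 domains in test 1, 32 in test 2 and 30 in control 2.

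Length varied between libraries over the same domain. Over the 358 domains called in all 4 libraries, the longest call was a median of 2.41 times the shortest, and up to 15.9 times. Over the 119 domains wide in every library the median ratio was 1.14, and in 51 of them (42.9%) all 4 calls lay within 1.1-fold of each other. Libraries of 1 group were not more alike than libraries of different groups. Of the domains called by either of a pair, both called 65.6% for test 1 with test 2 and 41.9% for control 1 with control 2, whereas test 1 with control 2 shared 74.3% and test 2 with control 2 shared 70.4%. The pairs with control 1 shared the smallest parts, 37.6% with test 1 and 56.0% with test 2.

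Calls restricted to a group were few. Both test libraries and no control library called 10 domains (0.842%), where the same pattern held for 1.01% of all 36146 merged regions. Both control libraries and no test library called 19 domains (1.60%), against a background of 1.25%. Both shares were near the background of all regions. The counts were also taken with a single library left out. With the domains redefined from 3 libraries, leaving out control 2 gave 183 domains called in both test libraries and not in control 1, and leaving out test 2 gave 85 called in both control libraries and not in test 1. Such a pattern asks for 1 library fewer, so a higher count is partly built in. The share over all regions was not computed for it, and nothing is read from these 2 counts.

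The 10 domains of the test libraries alone had fold enrichments from 2.88 to 5.11 and a −log10 q of at most 7.47. They lay on 8 chromosomes, 3 held a narrow peak of any library, and 2 were wide in both test libraries. The longest, chromosome 12 at 52672894 to 52674969, was 2076 bp in test 1 with a fold enrichment of 3.24 and 1345 bp in test 2 with 2.88. It held 1 narrow peak, in test 1. Chromosome 5 at 12936870 to 12938349 was the other domain wide in both, with 1375 bp in test 1 and 1473 bp in test 2 and fold enrichments of 3.78 and 3.06. The next 3 were wide in test 2 alone. Chromosome 9 at 41607928 to 41609674 was 378 bp in test 1 and 1738 bp in test 2. Chromosome 5 at 28808538 to 28810356 was 591 bp in test 1 and 1422 bp in test 2, and chromosome 2 at 88315185 to 88316503 was 984 bp in test 1 and 1319 bp in test 2.

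None of the 19 domains of the control libraries alone was wide in both control libraries. Their fold enrichments ran from 2.83 to 6.59, their −log10 q reached 10.7, and 6 held a narrow peak of any library. The longest, chromosome 21 at 10199863 to 10201370, was 356 bp in control 1 and 1508 bp in control 2. Chromosome 10 at 2564224 to 2565730 had the opposite order, with 1507 bp in control 1 and 556 bp in control 2. Each of these domains held 2 narrow peaks of control 1 and none of any other library. Chromosome 1 at 147152511 to 147153927 was 1337 bp in control 1 and 638 bp in control 2. Chromosome 20 at 24960010 to 24961652 was 556 bp in control 1 and 1269 bp in control 2, and chromosome 7 at 118509646 to 118510974 was 660 bp in control 1 and 1256 bp in control 2.

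A call of 1000 bp or more in both libraries of a group and in neither of the other, a contrast the rule itself used, held for 24 domains in the test direction and 7 in the control direction. Over all merged regions these shares were 0.0664% and 0.0194%, and nothing is read from them. Of the 24, a total of 22 also had a shorter call in a control library, as did all 7 in a test library. Among the 1092 regions called in all 4 libraries, the longest call was longer in both test libraries than in both control libraries at 51 of the 358 wide domains (14.2%, against 12.6% of all such regions). It was longer in both control libraries at 54 of them (15.1%, against 15.6%).

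Taken over the 4 libraries together, narrow peaks lay inside most wide domains, but not in any single library. At least 1 library had a narrow peak inside 711 of the 1188 domains (59.8%, 95% exact interval 57.0 to 62.7), against 20.3% of the other merged regions. All 4 libraries had one inside 144 domains (12.1%), against 0.755% of other regions, and 1 library alone had one inside 323 domains (27.2%). By library, the share of domains with a narrow peak was 26.2% in test 1 and 28.9% in test 2, against 37.9% in control 1 and 30.9% in control 2. For the other regions it was 5.93% in test 1 and 6.44% in test 2, against 9.31% in control 1 and 8.98% in control 2. The remaining 477 domains (40.2%) held no narrow peak of any library, so the label of an accessible domain rests there on the broad calls alone. Narrow peaks come from a subset of the same fragments and longer regions have more room for them, so these shares were not tested. Per 10000 bp of merged sequence, wide domains held 3.32 narrow peaks in test 1 and 3.74 in test 2, against 6.19 in control 1 and 4.11 in control 2. Other regions held 1.66 in test 1 and 1.81 in test 2, against 2.78 in control 1 and 2.52 in control 2. Of the narrow peaks inside wide domains, crowded 1 Mb windows described below held 315 of 561 in test 1 and 347 of 631 in test 2. In control 1 they held 523 of 1045, and in control 2, 366 of 693. The windows were chosen by shared narrow regions, so these counts are partly built in. Outside these windows all libraries together had 8.84 narrow peaks per 10000 bp where the longest call was from 1000 to under 1200 bp, against 9.18 from 900 bp to the limit. The value was 9.49 from 1200 to under 1500 bp, 12.9 from 1500 to under 2000 bp and 14.2 from 2000 to under 3000 bp. From 3000 bp it was 32.5, over only 6 domains.

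The number of narrow peaks inside wide domains was lower in both test libraries than in both control libraries. It was 561 in test 1 and 631 in test 2, against 1045 in control 1 and 693 in control 2, with means of 596 ± 49.5 in test libraries and 869 ± 249 in control libraries (SD, n = 2 each). The difference of -273 had an exact two-sided permutation p of 0.333, the smallest that 2 against 2 libraries allow. The number was not scaled to nucleosome-free fragments, of which control 1 had 15828837 and no other library more than 7531794. As a share of each library's own narrow list the order was the other way round, with 16.9% in test 1 and 15.5% in test 2, against 10.2% in control 1 and 13.0% in control 2 (means 16.2 ± 1.03% and 11.6 ± 1.99%, SD, n = 2 each, exact permutation p = 0.333). With the domains redefined from the other 3 libraries, leaving out control 1 made the difference in number -106. With each broad and each narrow list shortened by q to the length of the shortest one, the difference in number was -95 and the groups overlapped (exact permutation p = 0.667, n = 2 each).

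Inside wide domains, those in crowded windows included, the narrow peaks were somewhat longer and had higher fold enrichment than elsewhere. Their median length was 100 bp in test 1, 101 bp in test 2, 101 bp in control 1 and 102 bp in control 2, against 92, 85, 78 and 90 bp for the other narrow peaks of those libraries. Their median fold enrichment was 6.29 in test 1 and 6.16 in test 2, 5.33 in control 1 and 6.06 in control 2, with 5.91, 5.60, 5.11 and 5.76 elsewhere. At least 2 narrow peaks of the same library lay in 118 domains in test 1 and 135 in test 2, against 249 in control 1 and 145 in control 2. Neighbouring summits within a domain were a median of 507 bp apart in test 1 and 527 bp in test 2, against 461 bp in control 1 and 498.5 bp in control 2. Summits were spread along the domains, and the central part of the domain, of the same length as the parts on its left and right, held 31.3% of them in test 1 and 29.5% in test 2, against 26.9% in control 1 and 28.3% in control 2.

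Narrow peaks of 1 group alone were again few. Both test libraries and no control library had one inside 17 domains (1.43%, against 0.559% of all merged regions), and both control libraries and no test library inside 23 (1.94%, against 0.346%). The shares lay above the background in both directions, and longer regions have more room for a narrow peak of any kind, whose part was not tested. All 17 domains of the first kind had a broad call in control 2, and 21 of the 23 domains of the second kind had one in a test library. The next regions were chosen after their values were seen. At chromosome 17, 73029839 to 73031658, the broad call was 1805 bp in test 1 and 1701 bp in test 2, against 1758 bp in control 2 and no call in control 1, with 2 narrow peaks in each test library and none in control 2. At chromosome 18, 77378598 to 77380710, test 1 had no broad call and test 2 one of 298 bp, against 2113 bp in control 1 and 2086 bp in control 2. Both test libraries had no narrow peak there, against 6 in control 1 and 4 in control 2, and the −log10 q of the broad call was 3.63 in test 2, against 20.7 in control 1 and 8.37 in control 2.

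The longer the domain, the more often it held a narrow peak and was called everywhere. A narrow peak of any library lay in 49.8% of the 616 domains whose longest call was from 1000 to under 1200 bp, close to the 47.8% of regions from 900 bp to the limit. The share was 62.6% from 1200 to under 1500 bp, 76.0% from 1500 to under 2000 bp, 88.1% from 2000 to under 3000 bp and 25 of 25 domains from 3000 bp. Calls in all 4 libraries followed the same order, with 17.4%, 29.3%, 52.7%, 77.6% and 96% over those 5 classes, and 13.6% just under the limit. The limit of 1000 bp therefore marked no step in either measure.

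**Figure D3:**
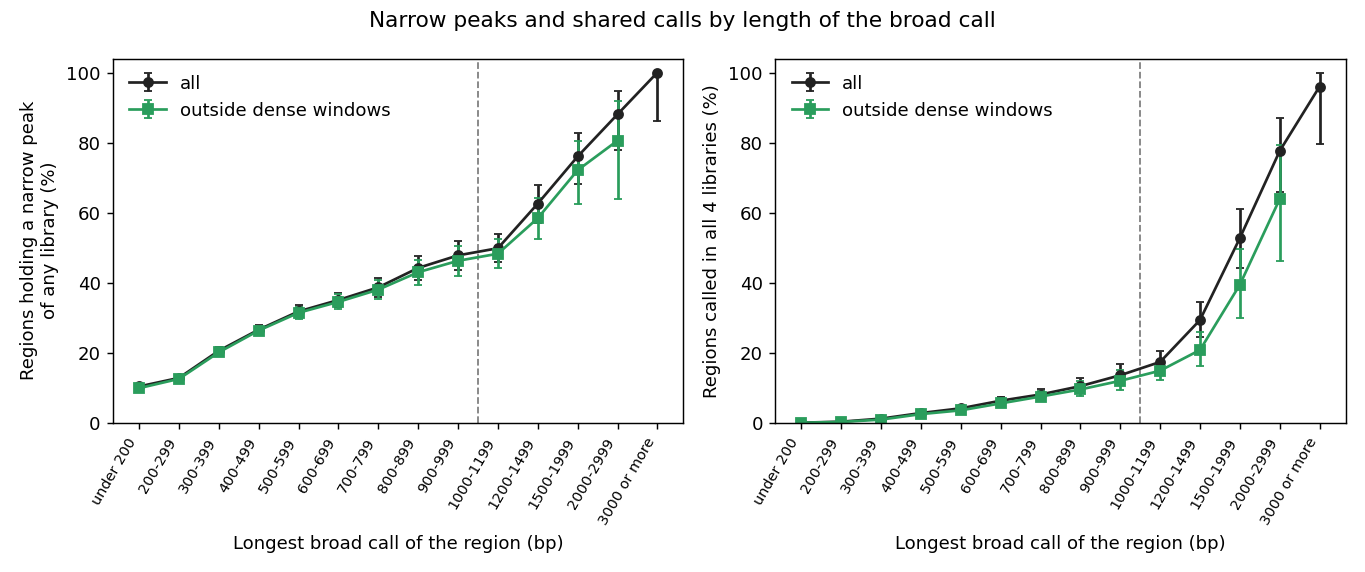
Share (%) of merged broad regions that hold a narrow peak of any library (left) and that were called in all 4 libraries (right), by the longest broad call of the region (bp), for all regions and for those outside dense windows, with 95% exact intervals and a dashed line at 1000 bp. Classes with fewer than 20 regions are not drawn; the shares pass 1000 bp without a step, at 47.8% and 49.8% for narrow peaks on its sides.

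The longest domains were concentrated in a few crowded stretches. In 33 windows of 1 Mb at least 5 narrow regions were called in all 4 libraries, and these dense windows, defined after the data were seen, held 185 wide domains (15.6%) and 2.31% of the other regions. They held 9.79% of the domains under 1500 bp, 38.7% of those from 1500 bp, 54.3% of those from 2000 bp and 19 of 25 (76%) from 3000 bp. Domains in dense windows were called in all 4 libraries in 145 of 185 cases (78.4%), against 213 of 1003 (21.2%) elsewhere, and were wide in all 4 in 42.2%, against 4.09%. A narrow peak of any library lay in 85.9% of them, against 55.0% elsewhere. Since the windows were themselves chosen by calls in all 4 libraries, these shares are descriptions.

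Wide domains in dense windows stood apart in coverage. The local background, taken as the deposited pileup plus 1 divided by the fold enrichment, less 1, had medians over domains in dense windows of 23.1 fragments in test 1 and 21.0 in test 2, against 18.6 in control 1 and 21.9 in control 2. Over domains elsewhere the medians were 3.56 in test 1 and 3.44 in test 2, against 3.54 in control 1 and 3.805 in control 2. The other merged regions of the dense windows had medians of 3.81 in test 1 and 3.94 in test 2, against 3.78 in control 1 and 4.26 in control 2. Other merged regions elsewhere had lower medians, 2.34 in test 1 and 2.25 in test 2, against 2.10 in control 1 and 2.54 in control 2. With no input library, this background is taken from the coverage of the same library, so it is not independent of the domain's own coverage. The median pileup over wide domains was 72.1 fragments in test 1 and 63.9 in test 2, against 65.3 in control 1 and 76.3 in control 2, in dense windows, and 17.5, 15.5, 14.8 and 17.7 fragments elsewhere. Fold enrichment differed less and in the other direction, with medians in dense windows of 3.31 in test 1 and 3.32 in test 2, 3.43 in control 1 and 3.22 in control 2, with 3.95, 3.62, 3.53 and 3.74 elsewhere. Duplicates were kept and no input library was used in the calling, and the part of repeated sequence in these coverages was not tested.

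The 10 longest domains were wide in all 4 libraries, and 8 of them lay in dense windows. Lengths given for named domains are of the longest peak of each library, and some libraries had a domain in more than 1 peak. The longest, chromosome 16 at 46401721 to 46408723, was called at 5263 bp in test 1 and 5281 bp in test 2, against 5282 bp in control 1 and 6937 bp in control 2. Its fold enrichment was 2.18 in test 1 and 2.16 in test 2, against 2.18 in control 1 and 2.09 in control 2, below the median of wide peaks in every library. It held 3 narrow peaks in test 1 and 4 in test 2, against 13 in control 1 and 6 in control 2. Close to it on the chromosome lay 2 more of the 10. Chromosome 16 at 46390862 to 46396143 was 5029 bp in test 1 and 4521 bp in test 2, against 4611 bp in control 1 and 5277 bp in control 2. Chromosome 16 at 46419503 to 46425049 was 2017 bp in test 1 and 2451 bp in test 2, against 2486 bp in control 1 and 4723 bp in control 2. In the last of these, the call of control 2 was far longer than that of the other 3 libraries. There and in the longest domain, control 2 had a single peak, while each other library had 2.

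The domain with the most narrow peaks, chromosome 1 at 564503 to 569972, was 3661 bp in test 1 and 3355 bp in test 2, against 2037 bp in control 1 and 5462 bp in control 2. It was in 2 broad peaks in each test library, 3 in control 1 and 1 in control 2. This stretch is known, as background not checked here against an annotation, to hold a nuclear copy of mitochondrial DNA, to which mitochondrial fragments can align. It held 11 narrow peaks in test 1 and 10 in test 2, against 12 in control 1 and 10 in control 2, a sum of 43. Its pileup was 959 fragments in test 1 and 831 in test 2, against 214 in control 1 and 1254 in control 2, so control 1 was the lowest while control 2 was the highest. All 10 domains with the most narrow peaks lay in dense windows and held sums of 24 to 43 over the libraries. Dense windows were themselves defined by narrow regions, so this placement is partly built in.

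The other long domains in dense windows named here differed in which library had the shortest call. In each of them that library had the domain in more than 1 peak. Chromosome 2 at 92317335 to 92322857 was 5037 bp in test 1 and 3416 bp in test 2, against 3765 bp in control 1 and 5051 bp in control 2, with 6, 7, 10 and 8 narrow peaks in that order. A neighbour at 92305611 to 92308691 was 3028 bp in test 1 and 2993 bp in test 2, against 1991 bp in control 1 and 3006 bp in control 2. Chromosome 18 at 107386 to 111390 was 2090 bp in test 1 and 3654 bp in test 2, against 4005 bp in control 1 and 3647 bp in control 2. Here test 1 was the short one. Chromosome 10 at 42390665 to 42394941 was 3921 bp in test 1 and 3887 bp in test 2, against 1731 bp in control 1 and 3953 bp in control 2. Chromosome 17 at 22251261 to 22255291 was the 1 domain of the 10 longest in which both test calls, 3915 bp in test 1 and 3813 bp in test 2, were longer than both control calls, 2342 bp in control 1 and 2113 bp in control 2. It was in 1 peak in each test library, against 3 peaks in control 1 and 2 in control 2. Its fold enrichment had the opposite order, at 3.05 in test 1 and 3.02 in test 2, against 3.43 in control 1 and 3.84 in control 2, and its narrow peaks numbered 5, 5, 7 and 6.

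Of the 10 longest, 2 lay outside dense windows. Chromosome 7 at 56438182 to 56442375 had nearly equal calls, 4113 bp in test 1 and 4194 bp in test 2, against 4145 bp in control 1 and 4111 bp in control 2, with 5, 7, 6 and 5 narrow peaks. Chromosome 2 at 162135166 to 162139050 was uneven, with 1487 bp in test 1 and 1855 bp in test 2, against 1468 bp in control 1 and 3849 bp in control 2. It was in 1 peak in control 2 and in 2 peaks in each other library. Its fold enrichment was highest in test 2, at 4.08, against 2.72 in test 1, 2.85 in control 1 and 3.11 in control 2.

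Further domains outside dense windows, chosen after their values were seen, show how much the agreement between libraries varied. At chromosome 6, 58776266 to 58779507, the calls were 3208 bp in test 1 and 3210 bp in test 2, against 3235 bp in control 1 and 3168 bp in control 2. At chromosome 10, 38815777 to 38818741, they were 2932 bp in test 1 and 2921 bp in test 2, against 2965 bp in control 1 and 2908 bp in control 2. Both domains had nearly the same length in every library. At chromosome 3, 195211621 to 195214472, control 1 was the exception, with 1374 bp, against 2830 bp in test 1, 2852 bp in test 2 and 2786 bp in control 2. Control 1 had that domain in 2 peaks, and each other library in 1. At chromosome 4, 187353582 to 187355917, test 1 was the exception, with 1011 bp, against 2278 bp in test 2, 2336 bp in control 1 and 2001 bp in control 2. Its fold enrichment was 5.27 in test 1 and 4.93 in test 2, against 5.80 in control 1 and 5.03 in control 2, high for so long a domain. At chromosome 14, 105696153 to 105698776, the calls were 1922 bp in test 1 and 2439 bp in test 2, against 2624 bp in control 1 and 2000 bp in control 2.

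**Figure D4:**
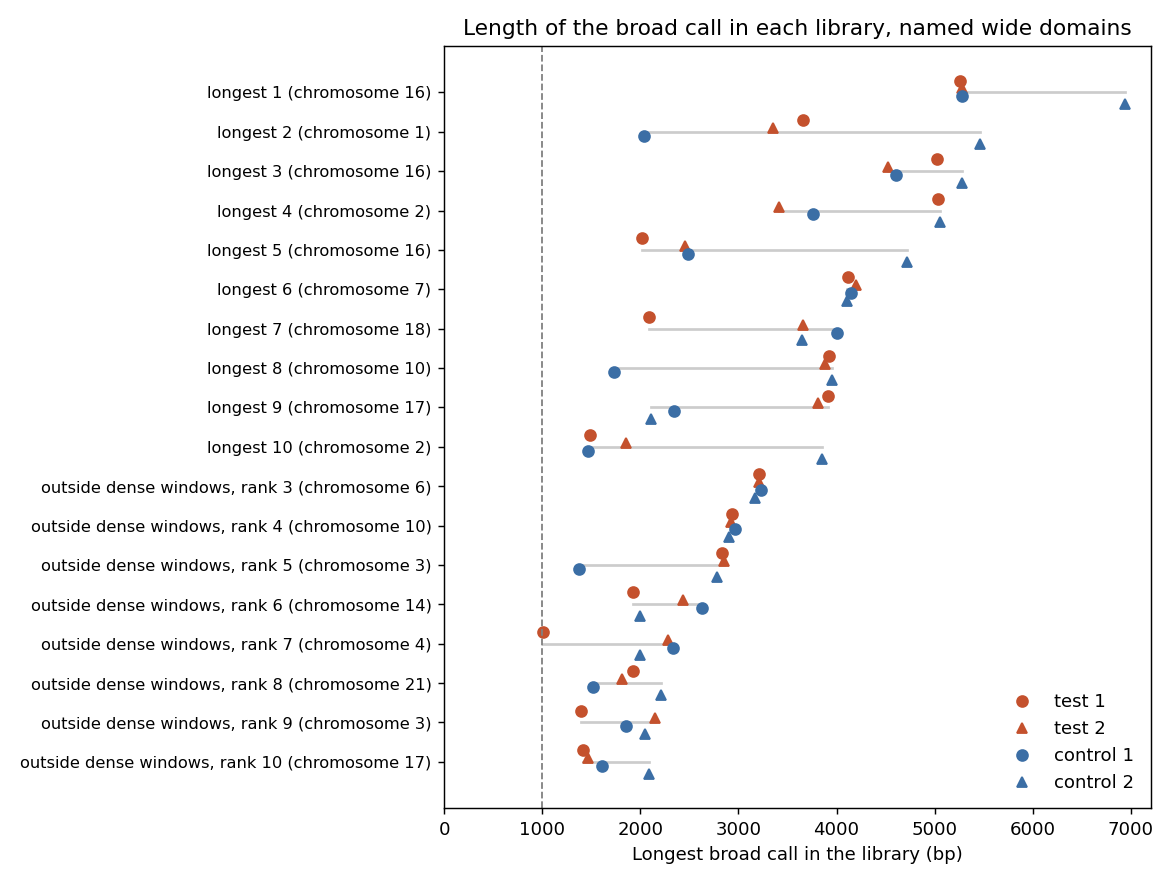
Longest broad call (bp) in each library at 18 named wide domains: the 10 longest, followed by the domains wide in all 4 libraries outside dense windows at ranks 3 to 10 by length (ranks 1 and 2 are longest 6 and longest 10). Red marks test and blue marks control libraries, grey lines span the 4 calls and the dashed line is at 1000 bp. Some domains, such as the one on chromosome 7 with 4111 to 4194 bp, have nearly equal calls. Others differ in 1 library, and some libraries with short calls had the domain in more than 1 peak.

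The 269 domains missing in control 1 alone lay almost wholly outside dense windows, at 266 of 269. A narrow peak of any library lay in 65.1% of them, near the 60.5% of the other regions with the same pattern. Their median fold enrichment was 4.33 in test 1 and 3.91 in test 2, against 4.17 in control 2, above the medians of wide peaks in those libraries. These values took the longest call at any length, which was wide at 112 domains in test 1, 112 in test 2 and 180 in control 2. The medians of shorter peaks were 4.05 in test 1, 3.62 in test 2 and 3.70 in control 2. The longest, chosen after its values were seen, was chromosome 17 at 18965007 to 18967665, with 2628 bp in test 1 and 2335 bp in test 2, against 965 bp in control 2. Its fold enrichment was 4.18 in test 1 and 4.13 in test 2, against 4.41 in control 2. The next 2 by length had lower enrichment. Chromosome 19 at 7933465 to 7936363 was 1068 bp in test 1 and 686 bp in test 2, against 2312 bp in control 2, with fold enrichments of 2.92, 2.99 and 2.98 and no narrow peak. Chromosome 1 at 17074826 to 17077289 was 482 bp in test 1 and 2295 bp in test 2, against 428 bp in control 2, with fold enrichments of 3.07, 2.93 and 2.81. It held 2 narrow peaks, both of control 1, which had no broad call there. Chromosome 12 at 120728531 to 120730819, the fourth by length, was 2110 bp in test 1 and 2274 bp in test 2, against 1216 bp in control 2. Chromosome 11 at 62607049 to 62609295, the fifth, was 1533 bp in test 1 and 2198 bp in test 2, against 2236 bp in control 2, with 1, 3 and 1 narrow peaks. The shorter fragments of control 1 move with this pattern, and their part in it was not tested.

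The 138 domains called in test 2 and control 1 alone had a median fold enrichment of 3.32 in test 2. In the 269 domains missing in control 1 alone, that library had a median of 3.91. Control 1 had a median of 3.49 over the 138 and no call at the 269. Of the 138, 54.3% held a narrow peak, against 32.8% of the other regions with the same pattern. That peak came from control 1 in 68 of the 75 domains that held one. The longest was chromosome 20 at 20335539 to 20338573, with 1140 bp in test 2 and 3035 bp in control 1. It held 1 narrow peak in test 1 and 1 in test 2, against 3 in control 1 and 1 in control 2, although test 1 and control 2 had no broad call there. The longest of the 112 domains called in control 1 alone was chromosome 5 at 17527598 to 17530463, with 2866 bp, a fold enrichment of 2.50 and 3 narrow peaks, all of control 1. These regions too were chosen after their values were seen.

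The most enriched wide domains, also chosen after their values were seen, were shorter than the longest ones. Chromosome 16 at 34021509 to 34022851 was 1343 bp in test 1 and 1338 bp in test 2, against 636 bp in control 1 and 1326 bp in control 2. Its fold enrichment was 8.84 in test 1 and 8.50 in test 2, against 9.95 in control 1 and 8.12 in control 2, so the library with the shortest call had the highest enrichment. Chromosome 1 at 121484079 to 121485431 lay in a dense window and was 1318 bp in test 1 and 1334 bp in test 2, against 1353 bp in control 1 and 1331 bp in control 2. Its pileup was 3322 fragments in test 1 and 3220 in test 2, against 3314 in control 1 and 4077 in control 2. The domain on chromosome 3 at 73159898 to 73161090 was wide in test 1 alone, with 1174 bp in test 1 and 358 bp in test 2, against 262 bp in control 1 and 416 bp in control 2. Its fold enrichment was 6.83 in test 1 and 7.69 in test 2, against 5.91 in control 1 and 9.93 in control 2.

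By chromosome, wide domains followed the merged regions with a few exceptions. Chromosome 1 held the most, 170, followed by chromosome 5 with 120, chromosome 10 with 95, chromosome 7 with 94 and chromosome 2 with 89. Their share of the merged regions of a chromosome was highest on chromosome 21, with 31 domains (6.83%, 95% exact interval 4.69 to 9.55), and on chromosome 4, with 55 domains (6.32%, 4.80 to 8.15). On chromosome 4, dense windows held 34 of the 55, and outside them the share was 2.91%. Chromosome 21 still had 5.21% outside dense windows. The lowest share was that of chromosome 15, with 8 domains (1.45%, 0.629 to 2.84). The most crowded window was chromosome 4 from 49 to 50 Mb, with 24 domains, followed by chromosome 10 from 42 to 43 Mb with 14 and chromosome 14 from 19 to 20 Mb with 12.

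**Figure D5:**
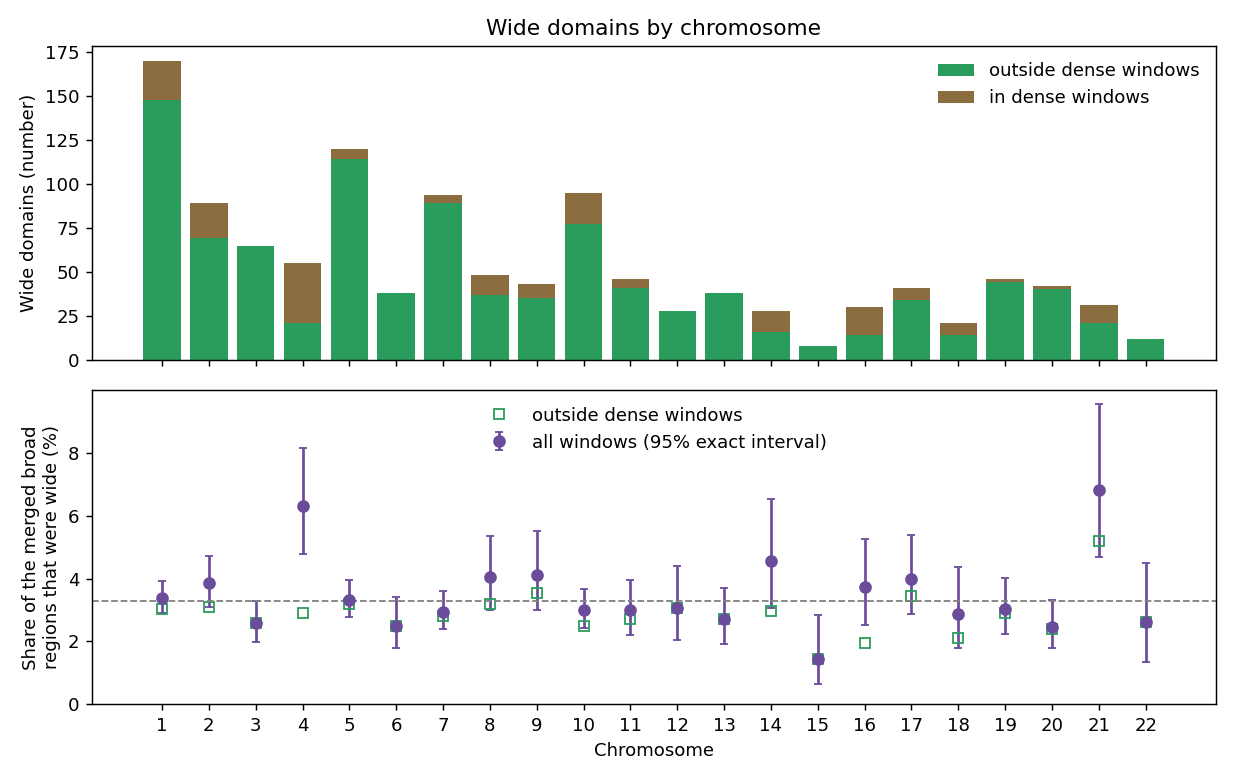
Number of wide domains on each chromosome, split by whether they lay in a dense window (top), and the share (%) of the chromosome's merged broad regions that were wide (bottom), with 95% exact intervals, open squares for the share outside dense windows and a dashed line at the value over all chromosomes, 3.29%. Chromosomes 21 (6.83%) and 4 (6.32%) have the highest shares, and the value of chromosome 4 outside dense windows is 2.91%.

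Over all wide domains, those in dense windows included, neighbouring domains on a chromosome lay a median of 572451 bp apart, and 115 of 1166 neighbouring pairs (9.86%) were less than 10000 bp apart. Of the 686 windows of 1 Mb that held a domain, 466 held a single one. Crowded windows also lay outside the dense ones, such as chromosome 21 from 10 to 11 Mb with 9 domains, and the first 1 Mb of chromosome 5 and chromosome 9 from 68 to 69 Mb with 8 each. The first 1 Mb of the chromosomes held 31 domains in all (2.61%), against 1.13% of the other merged regions. Single chromosomes differed between libraries. On chromosome 12, test 1 had 10 wide peaks and test 2 had 16, against 3 in control 1 and 14 in control 2. On chromosome 19 they numbered 21 in test 1 and 27 in test 2, against 8 in control 1 and 23 in control 2. On chromosome 13, test 1 had 5 and test 2 had 15, against 20 in control 1 and 5 in control 2. In the first pair of chromosomes control 1 was the lowest library, and on chromosome 13 it was the highest, while control 2 was within the range of the test libraries on all 3.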

How the data were processed

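Broad and narrow ATAC-seq peak lists of 4 OVSAHO libraries, 8 lists in all, were used, with groups from the labels. The hg19 build, MACS2 2.2.7.1, Bowtie2 2.3.5.1 and cutadapt 3.2 are named in the submitters' processing notes, next to Picard, edgeR 3.34.1 and deepTools 3.5.1. Per the file headers, MACS2 2.2.7.1 called peaks in each library separately from paired-end fragments, with no input library, all duplicates kept, a background range of 10000 bp, a q limit of 0.05 and a genome size of 2.7e+09. Broad peaks used all fragments and narrow peaks the nucleosome-free ones, per the file headers. As deposited, pileup is a coverage signal in fragments, p and q are −log10 values, and fold enrichment is coverage over local background (a ratio). None is normalized between libraries, and depth can affect which weak sites pass the q limit.

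From these lists, merged regions, peak lengths and overlaps were computed with Python 3.11.15, numpy 2.4.6, pandas 2.3.3 and scipy 1.17.1. Coordinates are 1-based on hg19. The merging was tested on simulated peaks, where all 1264 regions and 955 wide regions came out as drawn. Numbers per library were tested by exact permutation of libraries (6 assignments, two-sided), which cannot give a p below 0.333. Intervals of shares are 95% exact (Clopper-Pearson) and cover counting error only. Named regions were the 10 longest domains, up to 10 domains wide in all 4 libraries, up to 5 per direction called in 1 group alone and the first 5 of the 10 with most narrow peaks; others are marked where they were chosen after their values were seen. The domains and rules were chosen with earlier results of these data known. Alternatives were other length limits, a stricter q, lists of equal length, other merging and overlap rules, chromosome X, leaving out each library, and a block by replicate number. No hg19 sequence or annotation was used here, so no bases or genes are given for the regions.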

Additional observations from a re-analysis of the deposited data

How the results depend on the processing

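The sign of the group difference in wide peaks (-50) and in their bases (-66418.5) was not stable. Per 1000000 fragments, a scaling added after seeing the data, it was 1.74 wide peaks and 2679.61 bp. Leaving out each library in turn gave -171 to 71 wide peaks and -224894 to 92057 bp, both positive without test 1. The difference in narrow peaks inside wide domains kept its sign under every alternative run. It was -95 with lists of equal length, where the groups overlapped (exact permutation p = 0.667), and -464.5 to -106 with a library left out. The number of wide domains was 3216 at 750 bp, 238 at 1500 bp and 397 at a −log10 q of 5 or more, and 914 to 1116 with a library left out. Domains of both test libraries alone numbered 38 at 750 bp, 2 at 1500 bp and 16 with lists of equal length. With a library left out, 10 to 183 domains were called in every remaining test library and no remaining control library. Domains of both control libraries alone numbered 75 at 750 bp, 2 at 1500 bp, 7 at the stricter q and 12 with equal lists. With a library left out, 26 to 122 were called in every remaining control library and no remaining test library. These counts ask for 1 library fewer, so they are not the same comparison as with 4 libraries. The share called in all 4 libraries was 17.7% at 750 bp, 64.3% at 1500 bp, 36.0% at the stricter q and 21.2% outside dense windows, a setting added after seeing the data. With a library left out, 34.1% to 64.8% were called in all that remained, the highest without control 1. The share with a narrow peak was 49.9% at 750 bp, 81.9% at 1500 bp, 70.5% at the stricter q, 53.0% with equal lists and 55.0% outside dense windows, and 51.2% to 59.9% with a library left out. Fewer regions entered at 1500 bp and at the stricter q, and fewer libraries with a library left out; for the other settings the cause was not tested.

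With the replicate number as a block, the difference was -50 wide peaks, -66418.5 bp and -273 narrow peaks (exact two-sided sign-flip test, p = 1, 1 and 0.5, where 2 pairs cannot go below 0.5). The deviations of same-numbered libraries had a correlation of -0.158 over 36146 regions, and those of crossed numbers 0.158. With 2 libraries a group these are the same value with opposite sign, so they cannot decide whether libraries were paired. No pairing is stated, and none was used in the main comparison. With crossed numbers the pairs differed by -181 (test 1 and control 2) and 81 (test 2 and control 1) wide peaks. With 2 libraries a group, the exact permutation test cannot go below 0.333. Broad peaks were called on 22432549 to 31515662 fragments a library, and numbered 8654 to 18280.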

Other observations

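Chromosome X was left out of the definition of wide domains. Its broad lists held 13 wide peaks of 241 in test 1 and 12 of 233 in test 2, against 9 of 204 in control 1 and 18 of 310 in control 2. The test libraries lay between the control libraries there.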
